A study of Homo sapiens with 4 samples.

Results

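The expression profile of HGC27 cells after periplocymarin was described across 11821 of the 62710 Ensembl genes listed, namely those averaging 1 FPKM or more over the treated and the vehicle library (FPKM scale fragment counts by gene length and by library size). HGC27 is an established human line taken from a nodal metastasis of an undifferentiated stomach cancer. Its cells, grown in RPMI-1640 with 10% fetal bovine serum, received 0.3 µM periplocymarin or 0.1% DMSO, the vehicle, for 24 h. Both groups share the line, the medium, the serum and the time, and the labels give no genetic change in either. A treated and a vehicle library of MKN45, a second gastric cancer line given the same dose for the same time, make up the remaining 2 of the 4 libraries and are used only beside the HGC27 values. Each group is 1 library, so no difference has a replicate check and no p-value can be given. The scale of every difference is log2(FPKM + 1), treated minus vehicle, which understates the change of low genes. "Higher" and "lower" in counts of genes mean a difference of at least 1 on that scale, and levels are given in FPKM with the vehicle first.

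Periplocymarin is a plant cardiac glycoside, a steroid carrying a sugar, that binds the sodium-potassium pump (Na,K-ATPase) and blocks it. A blocked pump lets cell sodium rise and potassium fall, and the cell uses cotransporters, exchangers, channels and organic osmolytes to hold its volume. Lysosomes depend on another pump, the proton-pumping V-ATPase, and shortage of amino acids or faulty protein folding is relayed by the integrated stress response, in which phosphorylated eIF2 favours translation of the factor ATF4. Those systems, the division cycle, the gene expression machinery, mitochondria and cell identity order the account that follows.

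Recovered reads summed to 26846217 in the vehicle and 24926732 in the treated library. They were inferred from the steps between low values and from gene lengths, many of them searched. Counting error was small for most genes: the 95% exact binomial interval of a log2 ratio had a median half-width of 0.299 at 1 to 3 FPKM and 0.035 at 100 FPKM and above. It covers counting error only, since reads are not independent molecules and no library was repeated. In both HGC27 libraries the gastric epithelial markers were nearly absent: 16 markers summed to 4.91 and 1.76 FPKM, and MUC1 (3.89 and 1.1 FPKM) was the only one above 1 FPKM in either library. The 8 markers of undifferentiated or mesenchymal-type cells summed to 738.6 and 957.4 FPKM, and 7 of them reached 1 FPKM in each library. Among the highest were vimentin (VIM) at 406 and 379.6 FPKM and the fibrillar collagen COL3A1 at 147 and 349 FPKM. The factor TWIST1 was at 89.8 and 78.3 FPKM. FN1 was low, at 2.63 and 2.45 FPKM, and CDH2 was nearly absent, at 0.043 and 0 FPKM. Immune and endothelial marker lists summed to less than 1 FPKM in each library, and the 3 neural markers to 3.45 and 3.58 FPKM, all of it from TUBB3. Of the 2 erythroid markers HBB was at 0 in both libraries and HBA1 at 5.98 and 10.5 FPKM, a gene whose near-identical copy HBA2 shares reads. The labelled gastric origin is thus not visible in epithelial markers.

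Of the measured genes, 1149 were higher (9.72%) and 1228 lower (10.4%) after periplocymarin, and the median difference was 0.11. The direction followed the level of the gene. At a mean of 1 to 3 FPKM the median difference was -0.35, with 2.35% of genes higher and 19.6% lower. At 30 to 100 FPKM it was 0.64, with 27.3% higher and 2.38% lower. Among the 4181 genes from a mean of 10 FPKM upward, 19.0% were higher and 3.59% lower, around a median of 0.48, and counts in lists of abundant genes are read against those shares. The balance of calls also depended on scaling. Higher genes were 48.3% of all calls as deposited, 36.9% after centring on the median (859 higher and 1470 lower), 32.3% with both columns rescaled to 1 common sum (986 and 2062), 38.8% after quantile normalization (709 and 1119), 20.1% with reads scaled to library totals alone (487 and 1931) and 18.1% with mitochondrially encoded genes left out of such totals (584 and 2640). The median moved with it, from 0.11 as deposited to 0.04 after quantile normalization, -0.03 at a common sum, -0.18 with library totals and -0.24 without mitochondrial genes. Differences are therefore best read relative to the other genes, and 42 of the 72 lists with 6 or more measured genes kept the sign of their median under all 5 scalings.

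**Figure D1:**
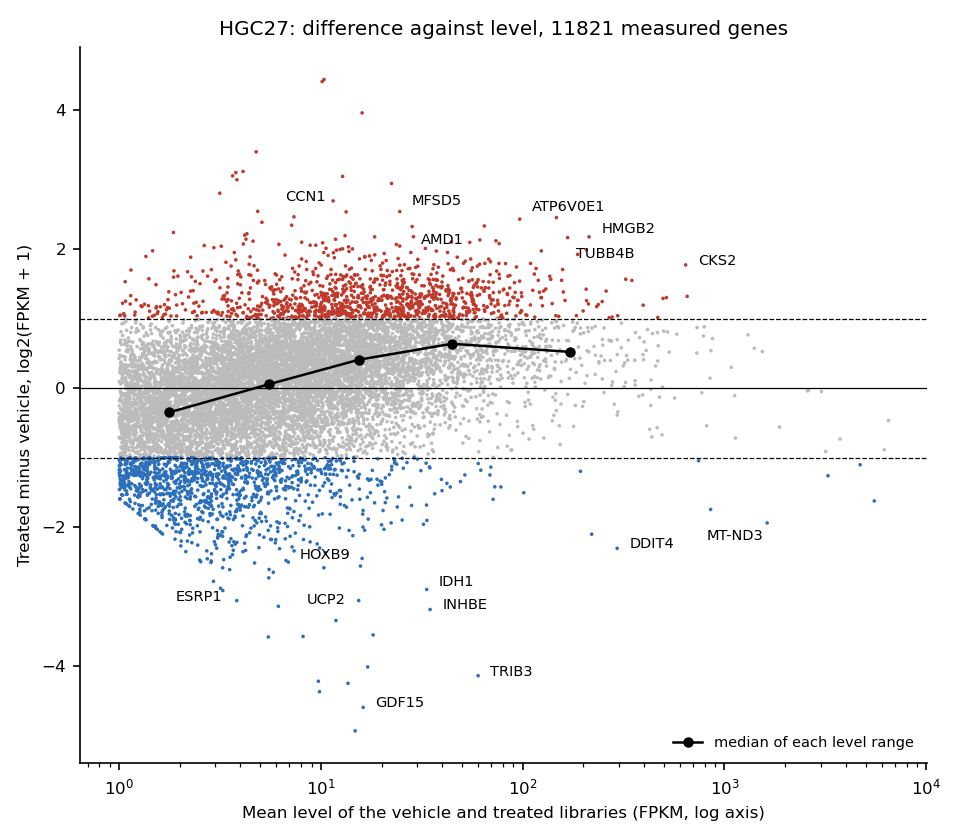
Difference in log2(FPKM + 1), treated minus vehicle (vertical axis), against mean FPKM of both HGC27 libraries (horizontal axis, log scale), 1 point for each of the 11821 measured genes. The line of medians runs from -0.35 at 1 to 3 FPKM to 0.64 at 30 to 100 FPKM. The median over all genes, 0.11 here, was lower under each of the 5 other scalings.

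The thresholds cut through a continuous range. SYNGR3 (1.25 and 0.75 FPKM) lay just inside the level floor and PLCH1 (1.66 and 0.337 FPKM) just outside. OTUD3 (4.0 and 9.0 FPKM) and ZNF275 (2.89 and 0.943 FPKM) were the called genes closest to the threshold of 1, whereas UVRAG (6.25 and 13.5 FPKM) and DDTL (3.62 and 1.31 FPKM) fell just short.

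The 20 largest upward differences among genes averaging 10 FPKM or more came from genes of several roles. Gene models of uncertain read assignment that would have ranked among them or among the downward genes, 8 and 9 in number, were left out: pseudogenes, read-through and unnamed models, mitochondrial transfer RNAs and other small RNAs, and near-copies. Examples are RBM14-RBM4 (2.35 and 20.7 FPKM) and UPK3BL1 (29.6 and 0 FPKM). MFSD5, a membrane transporter of the major facilitator family at chr12:53251251-53254405, stood at 6.52 and 42.8 FPKM, a difference of 2.54. CCN1, a secreted matrix protein at chr1:85580761-85583962, stood at 3.22 and 23.5 FPKM, a difference of 2.54, and its level was low in the vehicle. AMD1, which makes the aminopropyl donor for polyamines, was at 8.77 and 48 FPKM, a difference of 2.33. FLCN, a regulator of lysosomal nutrient signalling, was at 6.06 and 30.9 FPKM, a difference of 2.18, and CYP1B1, a steroid- and hydrocarbon-metabolizing cytochrome, at 20.1 and 89.3 FPKM, a difference of 2.1. HMGB2, a chromatin protein of dividing cells, was at 76.6 and 350 FPKM, a difference of 2.18. CA2, the carbonic anhydrase that interconverts carbon dioxide and bicarbonate, was at 3.61 and 17.6 FPKM, a difference of 2.01. EMP1 (3.74 and 19.9 FPKM), EFNA1 (4.78 and 22.7 FPKM), DAZAP2 (28.6 and 124 FPKM), CLEC2B (8.51 and 38.9 FPKM) and ARHGAP19 (9.77 and 47.8 FPKM) were also in this set. Among these upward genes the ratio of treated to vehicle FPKM ran from 4.34 for DAZAP2 to 7.3 for CCN1.

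The 20 largest downward differences at those levels held secreted stress proteins, metabolic enzymes and transcriptional regulators. IDH1, the cytosolic isocitrate dehydrogenase at chr2:208236227-208266074, stood at 59.8 and 7.15 FPKM, a difference of -2.9. SOSTDC1, a secreted BMP and WNT antagonist, was at 27.8 and 4.26 FPKM, a difference of -2.45. PCK2, the mitochondrial enzyme that makes phosphoenolpyruvate, was at 32.5 and 7.55 FPKM, a difference of -1.97. ZNF572 was at 18.5 and 2.24 FPKM, a difference of -2.59, RIMS4 at 36 and 8.63 FPKM, a difference of -1.94, and PRAC1 at 53.6 and 13.6 FPKM, a difference of -1.91. MRPL24 and MRPS26, proteins of the large and the small mitochondrial ribosomal subunit, were at 33.6 and 7.46 FPKM and 20.4 and 4.3 FPKM. GTF2H3, a subunit of TFIIH, was listed at 22.9 and 4.76 FPKM and HOTTIP, a noncoding RNA of the HOXA cluster, at 27.6 and 6.74 FPKM, but GTF2H3 overlaps EIF2B1 and HOTTIP overlaps HOXA13. With the strand setting not given, reads of overlapping genes cannot be told apart.

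Genes of ion transport lay on both sides. The pump that the drug binds is a catalytic alpha chain with a beta chain that carries it to the membrane. Of its 5 measured genes, regulators included, 1 was higher and 1 lower, with a median of -0.38. The higher was the beta chain gene ATP1B3, at 36.7 and 116 FPKM, a difference of 1.64, while FXYD5, a regulatory subunit, was at 13.7 and 10.3 FPKM, a difference of -0.38. The lower was the less abundant of 2 measured alpha chain genes, with a difference of -1.18, and the other alpha chain gene differed by 0.97. Together these 2 summed to 47.2 and 90.2 FPKM. From a mean of 10 FPKM upward the 3 genes of the list had a median of 0.97, against 0.48 over all genes. Of 8 calcium pumps and exchangers 1 was higher, ATP2A2 (14.7 and 39.1 FPKM, a difference of 1.35), which fills the endoplasmic reticulum with calcium, and 1 lower, SLC24A1 (2.12 and 0.0795 FPKM, a difference of -1.53), which overlaps DENND4A. Of 13 sodium, proton and chloride carriers 1 was higher, the sodium-potassium-chloride cotransporter SLC12A2 (3.68 and 9.84 FPKM, a difference of 1.21), and 1 lower, the sodium-proton exchanger SLC9A8 (4.69 and 1.57 FPKM, a difference of -1.15). Potassium channel genes had 1 of 12 higher, KCNE4 (2.08 and 5.9 FPKM), and 2 lower, KCNG1 (2.62 and 0.0627 FPKM) and KCNJ4 (2.51 and 0.637 FPKM), around a median of -0.49. In the list of osmotic and volume response, 5 of 15 measured genes were higher and 2 lower, with a median of 0.74. Its higher members were SLC6A6 (3.27 and 17.2 FPKM, a difference of 2.09), which imports taurine, SLC38A2 (82.5 and 331 FPKM, a difference of 1.99), which imports small neutral amino acids, SLC6A8 (11.2 and 28.3 FPKM), which imports creatine, the kinase SGK1 (1.76 and 7.96 FPKM, a difference of 1.7) and LRRC8A (5.51 and 21 FPKM, a difference of 1.76). LRRC8A is the obligatory subunit of the volume-regulated anion channel, and its partner subunit LRRC8D lay the other way, at 26.5 and 5.87 FPKM, a difference of -2.0. STK39, the kinase that activates cation-chloride cotransporters, was also lower, at 7.24 and 2.56 FPKM, a difference of -1.21.

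Genes of the integrated stress response were on balance lower. Of 28 measured genes 11 were lower and 1 higher, and the list's median was -0.71 against 0.11 over all genes. From 10 FPKM upward 10 of 22 were lower, where 3.59% of all genes were. The largest differences were those of the secreted GDF15 (chr19:18374731-18389176, 32.1 and 0.366 FPKM), the AKT-binding TRIB3 (115 and 5.56 FPKM) and INHBE (63.5 and 6.08 FPKM), a liver-type activin chain. Other lower members were CHAC1, which breaks down glutathione, at 37.2 and 10.7 FPKM, a difference of -1.71, the hormone FGF21 at 28.5 and 8.4 FPKM, a difference of -1.65, SESN2, a leucine sensor that restrains mTORC1, at 15 and 4.75 FPKM, a difference of -1.47, and the factors CEBPB (27.5 and 10.5 FPKM, a difference of -1.31) and ATF3 (17.4 and 6.7 FPKM, a difference of -1.25). ATF5, a second ATF4-like factor, was at 40.5 and 10.1 FPKM, a difference of -1.9, and overlaps NUP62. ATF4 itself was at 216 and 180 FPKM, a difference of -0.27, DDIT3 (CHOP), the factor that ATF4 induces, at 47.6 and 24.8 FPKM, a difference of -0.92, and ASNS, the asparagine synthetase used as a reporter of the response, at 150 and 160.3 FPKM, a difference of 0.10. Those last 3 did not reach the threshold. The higher member was PPP1R15B (20.6 and 52.4 FPKM, a difference of 1.31), the constitutive partner of the phosphatase that reverses eIF2 phosphorylation, whereas the inducible partner PPP1R15A was at 22.4 and 36.6 FPKM, a difference of 0.69. The list thus held members on both sides, and ATF4 itself was not among the lower ones.

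Targets of ATF4 carry composite C/EBP-ATF elements, written here as TGATGNAA. The 250 bases before the RefSeq start (GRCh38.p14) held it, on either strand, in 4 of 23 genes of the list with a promoter (17.4%) and in 1.4% of 8651 measured genes. Those 4 promoters are shown 5′ to 3′ in the direction of the gene, with the element in capitals, and their genes lay on both sides: CHAC1 (chr15:40953221-40953470 on the plus strand), FGF21 (chr19:48755274-48755523 on the plus strand) and ATF3 (chr1:212565157-212565406 on the plus strand) were lower and PPP1R15B (chr1:204411818-204412067 on the minus strand) higher. The list was chosen for its role in this response, which these elements are known to serve, so its share describes the list and not the drug. Among all measured genes the element stood in 2.01% of promoters of higher genes and in 2.17% of those of lower genes. A match is a description of letters and not evidence of binding.
CHAC1: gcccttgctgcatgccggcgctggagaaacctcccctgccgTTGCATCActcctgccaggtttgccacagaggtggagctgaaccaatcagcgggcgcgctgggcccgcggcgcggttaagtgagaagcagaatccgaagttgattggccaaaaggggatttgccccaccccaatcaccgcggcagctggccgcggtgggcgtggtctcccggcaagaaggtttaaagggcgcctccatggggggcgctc
FGF21: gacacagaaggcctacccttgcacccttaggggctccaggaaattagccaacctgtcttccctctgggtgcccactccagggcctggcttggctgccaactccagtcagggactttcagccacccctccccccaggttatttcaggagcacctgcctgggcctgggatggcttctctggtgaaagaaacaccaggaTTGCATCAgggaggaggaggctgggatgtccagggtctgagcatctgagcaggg
ATF3: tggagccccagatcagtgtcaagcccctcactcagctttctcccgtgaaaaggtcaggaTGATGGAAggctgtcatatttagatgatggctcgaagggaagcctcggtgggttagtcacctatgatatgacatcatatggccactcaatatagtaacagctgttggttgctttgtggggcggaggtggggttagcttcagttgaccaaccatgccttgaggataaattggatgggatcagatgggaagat
PPP1R15B: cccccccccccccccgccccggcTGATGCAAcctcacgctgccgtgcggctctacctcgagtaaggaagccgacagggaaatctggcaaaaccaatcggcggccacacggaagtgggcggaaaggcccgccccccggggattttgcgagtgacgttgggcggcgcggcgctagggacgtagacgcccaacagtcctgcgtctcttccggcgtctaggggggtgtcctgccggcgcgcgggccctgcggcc

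**Figure D2:**
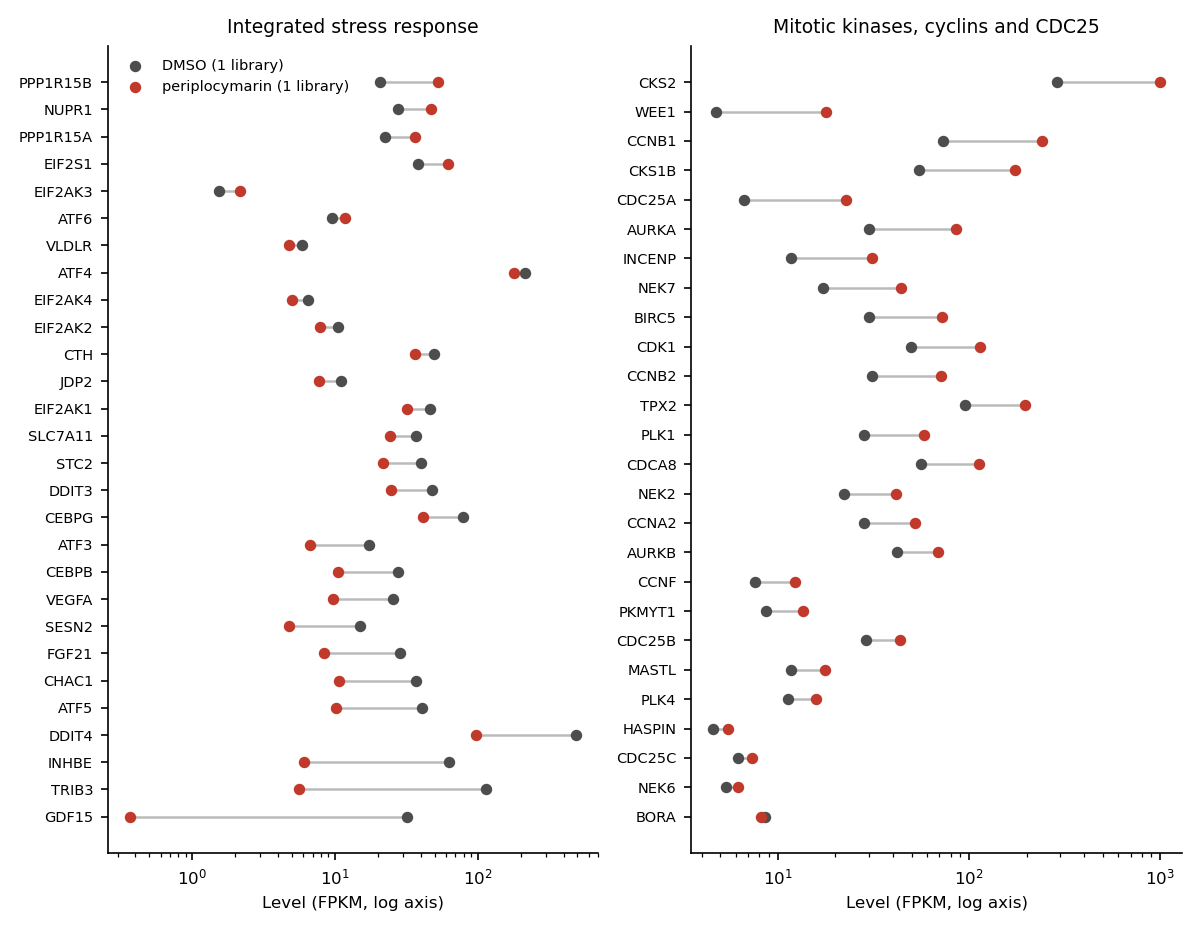
Level in FPKM (horizontal axis, log scale) of each measured gene of 2 lists (rows), with 1 point for the vehicle library and 1 for the treated library, ordered by difference. In the left panel most treated points of the integrated stress response lie to the left of the vehicle, down to GDF15 at 0.366 FPKM, and in the right panel mitotic kinases, cyclins and CDC25 genes lie to the right, with CKS2 at 994 FPKM.

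Amino acid genes were divided. Of 19 transporters 4 were higher and 1 lower. SLC1A4, a transporter of alanine and serine, was at 14.1 and 2.33 FPKM, a difference of -2.18, while SLC38A7 (3.23 and 8.83 FPKM), SLC36A1 (2.66 and 7.54 FPKM) and SLC7A6 (7.18 and 16.9 FPKM) were higher. Of 13 synthesis genes 1 was higher and 2 lower, with a median of -0.16. The lower members were ASS1 (150.4 and 52.2 FPKM, a difference of -1.51), which makes argininosuccinate, and ARG2 (16.4 and 3.96 FPKM, a difference of -1.81), the mitochondrial arginase. Aminoacyl-tRNA synthetases, which charge transfer RNAs, had 2 of 36 higher and 4 lower around a median of -0.02. WARS1 (107 and 39.1 FPKM), the cytosolic enzyme for tryptophan, was among the lower members. Both higher members, YARS2 (10 and 32.5 FPKM) and LARS2 (1.61 and 5.33 FPKM), serve mitochondria.

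Protein folding genes of the endoplasmic reticulum were more often higher than lower, at 8 and 1 of 44. CALR, a calcium-binding lectin chaperone, was at 177 and 519 FPKM, a difference of 1.55, and the co-chaperones DNAJC3 (5.13 and 14.9 FPKM) and DNAJB11 (10.9 and 27.5 FPKM) and the extraction ATPase VCP (22.3 and 61.3 FPKM, a difference of 1.42) were higher. HSPA5 (BiP), the principal chaperone of that compartment, was at 69 and 115 FPKM, a difference of 0.73, and XBP1, the factor spliced by IRE1, was the lower member at 64.3 and 23.3 FPKM, a difference of -1.42. From 10 FPKM upward 7 of 30 were higher, against 19.0% of all genes at that level. In the cytosol HSPA8, the constitutive HSP70, was at 108 and 34.9 FPKM, a difference of -1.6, the only lower gene of 53 chaperones measured. PFDN5 (12.5 and 47.9 FPKM, a difference of 1.85) and PFDN2 (71.2 and 177 FPKM, a difference of 1.3), subunits of the tubulin- and actin-folding prefoldin, were higher. Among redox genes PRDX1 (142 and 376 FPKM, a difference of 1.4), a peroxidase, and HMOX1 (2.8 and 9.13 FPKM, a difference of 1.42), the haem oxygenase, were higher, and 4 of 31 in that list were higher with none lower; its median of 0.38 became -0.07 after quantile normalization.

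The highest median of those 72 lists was that of the V-ATPase, whose V1 sector hydrolyses ATP in the cytosol and whose V0 sector passes protons into the lysosome. Of 18 measured genes 11 were higher and 1 lower, and the median difference was 1.34. From 10 FPKM upward 10 of 11 were higher, where 19.0% of all genes were. In the V1 sector the catalytic subunit ATP6V1A was at 6.07 and 20.8 FPKM, a difference of 1.63, and its partner ATP6V1B2 at 12.1 and 42.1 FPKM, a difference of 1.72, with ATP6V1C1 (4.0 and 16.1 FPKM), ATP6V1D (9.0 and 27.9 FPKM), ATP6V1E1 (20.3 and 54.2 FPKM) and ATP6V1G1 (23.8 and 56.9 FPKM) also higher. In the V0 sector ATP6V0C, which forms the proton ring, was at 28.8 and 107 FPKM, a difference of 1.86, ATP6V0B at 14.5 and 47.1 FPKM, a difference of 1.63, ATP6V0D1 at 3.45 and 10.1 FPKM, a difference of 1.32, and ATP6V0E1 at 29.6 and 164 FPKM, a difference of 2.43. The accessory subunit ATP6AP1 was at 14.7 and 44.3 FPKM, a difference of 1.53. The lower member was ATP6V1E2 (3.29 and 0.48 FPKM, a difference of -1.54), the isoform known from testis. Subunits of both sectors were thus higher, and the list's median stayed above 0 in all 5 scalings.

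Other lysosomal genes lay in the same direction by smaller amounts. Of 49 measured, 10 were higher and 2 lower, with a median of 0.55; from a mean of 10 FPKM upward 9 of 22 were higher. Among hydrolases GLA, an alpha-galactosidase, was at 4.39 and 20.5 FPKM, a difference of 2.0, and NEU1, a sialidase, at 0.521 and 3.86 FPKM, a difference of 1.68, while IDUA (2.18 and 0.45 FPKM) and FUCA1 (2.12 and 0.478 FPKM) were lower. The membrane proteins LAMP1 (13.8 and 30.2 FPKM, a difference of 1.08) and LAMP2 (17.3 and 41.5 FPKM, a difference of 1.22), the cholesterol carrier NPC2 (32.9 and 80.9 FPKM, a difference of 1.27) and LAPTM4A (60.3 and 179 FPKM, a difference of 1.55) were higher. Of 34 autophagy genes 6 were higher and 1 lower. They included the lipidated autophagosome proteins GABARAP (22.8 and 63 FPKM, a difference of 1.43), GABARAPL1 (5.99 and 19.7 FPKM, a difference of 1.56) and MAP1LC3B (13.8 and 34.3 FPKM, a difference of 1.25), the membrane-spanning factor ATG9A (10.7 and 30.2 FPKM, a difference of 1.42) and the protease ATG4D (8.99 and 40.2 FPKM, a difference of 2.04). ATG4C, a related protease, was at 6.41 and 1.16 FPKM, a difference of -1.78. The regulators of this programme differed less: TFEB was at 1.88 and 0.947 FPKM, a difference of -0.57, and TFE3 at 9.17 and 13.4 FPKM, a difference of 0.50.

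The CLEAR element bound by TFEB contains TCACGTGA, which reads the same on both strands. The letters stood in 1.87% of 8651 measured promoters, in 3.55% of those of higher genes, in 1.2% of those of lower genes and in 6 of 77 promoters of the proton pump, lysosomal and autophagy lists (7.79%). The 162 measured genes with the letters had a median difference of 0.34, with 18.5% higher and 6.17% lower. Those without them had 0.14, with 9.6% higher and 9.66% lower. Genes with the letters had a median level of 8.78 FPKM, against 6.99 FPKM without, and direction followed level. From a mean of 10 FPKM upward the letters stood in 3.08% of promoters of higher genes, against 2.1% of all. Among lower genes at that level 2 of 93 had them. The lysosomal lists were chosen for roles that this element is known to serve, so their share describes the lists. The 4 promoters shown here are from 2 proton pump subunits, a membrane protein and CTSA (5.9 and 12.6 FPKM, a difference of 0.98), the protective cathepsin; the capitals mark TCACGTGA, which begins 60, 59, 29 and 26 bases before the start in that order. They lie at chr16:67481158-67481407 on the minus strand, chr9:114587519-114587768 on the plus strand, chr13:113296989-113297238 on the plus strand and chr20:45891085-45891334 on the plus strand.
ATP6V0D1: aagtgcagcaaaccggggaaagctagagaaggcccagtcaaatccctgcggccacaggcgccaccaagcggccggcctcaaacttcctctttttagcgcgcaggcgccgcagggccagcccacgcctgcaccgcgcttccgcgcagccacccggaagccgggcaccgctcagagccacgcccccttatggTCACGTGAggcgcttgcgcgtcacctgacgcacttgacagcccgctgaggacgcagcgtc
ATP6V1G1: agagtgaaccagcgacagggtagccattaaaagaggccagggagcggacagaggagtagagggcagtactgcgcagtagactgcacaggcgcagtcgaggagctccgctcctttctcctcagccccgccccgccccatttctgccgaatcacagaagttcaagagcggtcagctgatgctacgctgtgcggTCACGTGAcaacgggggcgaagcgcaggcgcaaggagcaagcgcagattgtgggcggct
LAMP1: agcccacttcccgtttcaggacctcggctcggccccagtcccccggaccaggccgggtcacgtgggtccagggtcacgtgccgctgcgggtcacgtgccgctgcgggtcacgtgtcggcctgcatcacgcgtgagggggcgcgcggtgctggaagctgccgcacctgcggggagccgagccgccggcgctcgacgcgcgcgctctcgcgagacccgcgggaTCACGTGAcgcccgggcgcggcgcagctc
CTSA: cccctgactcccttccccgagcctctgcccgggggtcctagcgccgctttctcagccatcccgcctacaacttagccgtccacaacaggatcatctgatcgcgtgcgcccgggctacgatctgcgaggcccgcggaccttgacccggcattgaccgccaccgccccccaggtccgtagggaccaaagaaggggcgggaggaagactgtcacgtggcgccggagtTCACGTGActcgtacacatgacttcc

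**Figure D3:**
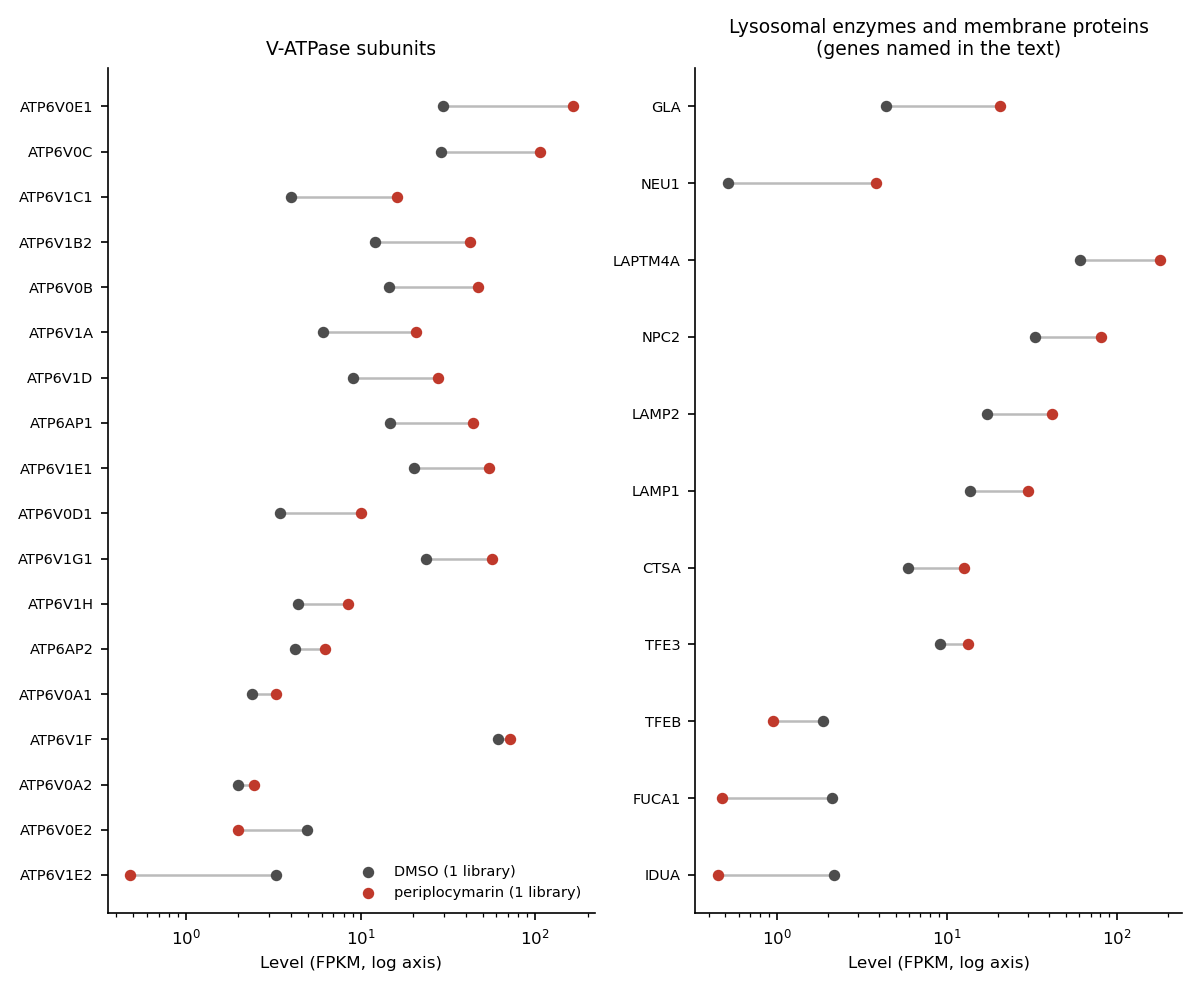
Level in FPKM (horizontal axis, log scale) of V-ATPase subunits (left) and of the lysosomal genes named in the text, not the whole list (right), with 1 point for each library and genes ordered by difference. Treated points lie to the right of the vehicle for most rows, with ATP6V0E1 at 164 FPKM, and ATP6V1E2 lies to the left.

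Membrane traffic was represented by small GTPases of the RAB, ARF and SAR families, of which 14 of 62 were higher and 1 lower. Their median of 0.34 became -0.004 with the columns rescaled without mitochondrial genes. RAB7A, which directs late endosomes to lysosomes, was at 18.4 and 47.1 FPKM, a difference of 1.31. The early secretory GTPases RAB1A (41.7 and 97.9 FPKM), SAR1A (11.1 and 28.1 FPKM) and ARF4 (28.5 and 101 FPKM, a difference of 1.8) were higher. Coat proteins differed less, with 4 of 44 higher and 1 lower, COPG2 (14 and 3.52 FPKM, a difference of -1.73). M6PR, the receptor that carries hydrolases to lysosomes, was at 22.2 and 101 FPKM, a difference of 2.13, but overlaps PHC1.

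Genes of mitosis were higher in large numbers. Of 65 genes for mitotic kinases, cyclins and the anaphase-promoting complex 22 were higher and 1 lower (ANAPC16, 16.1 and 5.81 FPKM), with a median of 0.71; from a mean of 10 FPKM upward 22 of 50 were higher. Cyclin B1 (CCNB1), the partner of CDK1 at entry to mitosis, was at 73.5 and 242 FPKM, a difference of 1.71, CDK1 at 49.4 and 114 FPKM, a difference of 1.19, and CKS2 and CKS1B are small subunits of the kinase. CKS2 was at 289.9 and 994 FPKM, a difference of 1.77, and CKS1B at 55 and 174 FPKM, a difference of 1.64. WEE1, which restrains CDK1, was at 4.74 and 17.8 FPKM, a difference of 1.71, and CDC25A, which releases it, at 6.66 and 22.7 FPKM, a difference of 1.63. The securin PTTG1 (41.9 and 131 FPKM, a difference of 1.62), the ubiquitin-conjugating enzymes UBE2C (61 and 164 FPKM, a difference of 1.41) and UBE2S (27 and 95.5 FPKM, a difference of 1.78), the kinase AURKA (29.9 and 85.1 FPKM, a difference of 1.48) and the cytokinesis scaffold ANLN (36.3 and 128 FPKM, a difference of 1.79) were higher. At the kinetochore, 12 of 47 were higher and 2 lower, including the checkpoint kinase BUB1B (25.5 and 87.2 FPKM, a difference of 1.73), the motor CENPE (8.48 and 32 FPKM, a difference of 1.8) and MAD2L1 (10.4 and 31.6 FPKM, a difference of 1.51), against CENPS (7.98 and 1.87 FPKM, a difference of -1.65) and SPC24 (15.8 and 6.82 FPKM). Of 27 kinesins 9 were higher and 3 lower, with the mitotic KIF20A (25.8 and 85.5 FPKM, a difference of 1.69) and KIF18B (13.5 and 44.2 FPKM, a difference of 1.64) higher. The lower members KIF1A (3.4 and 0.644 FPKM), KIF3C (2.66 and 0.385 FPKM) and KIF7 (4.04 and 1.47 FPKM) are known from axons and cilia. The 3 medians stayed above 0 under all 5 scalings.

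Late cell cycle promoters carry a CHR element, TTTGAA, often below CCAAT boxes. TTTGAA stood in 36 of 117 promoters of the kinetochore, mitotic kinase and kinesin lists (30.8%), against 8.23% of 8651 measured promoters, and CCAAT in 56.4% against 36.3%. These lists were chosen for their role in division, which these elements are known to control, so the shares describe the lists and not the drug. Measured genes with TTTGAA had a median difference of 0.19 and those without it 0.14. The 4 promoters shown include an adjoining pair of TTTGAA matches in ANLN that spans both strands. All 4 promoters are from members that were higher, with TTTGAA and CCAAT, or their reverse complements, in capitals. They lie at chr7:36389612-36389861 on the plus strand, chr9:89310945-89311194 on the plus strand, chr15:40160819-40161068 on the plus strand and chr1:154974431-154974680 on the plus strand.
ANLN: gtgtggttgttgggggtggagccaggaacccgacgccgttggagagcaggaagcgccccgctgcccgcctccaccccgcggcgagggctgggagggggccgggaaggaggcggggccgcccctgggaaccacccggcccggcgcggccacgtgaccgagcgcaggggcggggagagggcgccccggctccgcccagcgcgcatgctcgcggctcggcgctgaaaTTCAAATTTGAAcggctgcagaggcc
CKS2: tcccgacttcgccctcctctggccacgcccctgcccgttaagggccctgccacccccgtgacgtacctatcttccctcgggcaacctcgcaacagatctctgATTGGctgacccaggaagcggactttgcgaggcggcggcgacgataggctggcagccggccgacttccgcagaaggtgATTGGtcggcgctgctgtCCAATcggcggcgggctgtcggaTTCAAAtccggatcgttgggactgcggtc
BUB1B: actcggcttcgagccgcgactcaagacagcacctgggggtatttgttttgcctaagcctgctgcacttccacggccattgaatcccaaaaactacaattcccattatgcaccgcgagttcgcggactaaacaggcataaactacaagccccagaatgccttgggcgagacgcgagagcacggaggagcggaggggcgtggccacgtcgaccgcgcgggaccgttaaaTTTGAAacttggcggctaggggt
CKS1B: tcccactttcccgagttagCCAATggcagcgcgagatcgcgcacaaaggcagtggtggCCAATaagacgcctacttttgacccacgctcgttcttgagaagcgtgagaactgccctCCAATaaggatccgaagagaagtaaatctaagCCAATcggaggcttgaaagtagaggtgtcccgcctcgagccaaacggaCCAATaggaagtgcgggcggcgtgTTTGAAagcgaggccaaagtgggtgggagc

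Core and linker histones, which package DNA, had 12 of 29 genes higher and none lower, with a median of 0.89. H2BC12 was at 16.8 and 68.1 FPKM, a difference of 1.95, H1-2 at 11.4 and 39.1 FPKM, a difference of 1.69, and H2AX, the variant phosphorylated at DNA breaks, at 23.3 and 87.3 FPKM, a difference of 1.86. Replication-dependent histone messages mostly lack a poly(A) tail, which these libraries selected for, and reads of near-identical copies cannot be assigned with certainty. The polyadenylated variant H2AZ2 (19.8 and 51.9 FPKM, a difference of 1.34) was higher too. Tubulin genes had 5 of 18 higher and 2 lower and included TUBB4B (60.2 and 274 FPKM, a difference of 2.17), which overlaps FAM166A, and TUBA1B (373 and 934 FPKM, a difference of 1.32), and near-identical tubulins share reads.

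DNA replication genes did not lie on a single side: of 84, 7 were higher and 8 lower, and the median of 0.25 turned negative in 3 of 5 scalings. The clamp PCNA (95 and 229 FPKM, a difference of 1.26), the flap nuclease FEN1 (30.1 and 109 FPKM, a difference of 1.82) and the ribonucleotide reductase subunit RRM2 (18.8 and 48.8 FPKM, a difference of 1.33) were higher. The kinase CDC7 (31 and 10.4 FPKM, a difference of -1.49), the primase subunit PRIM1 (29.5 and 10.6 FPKM, a difference of -1.39), GINS4 (8.67 and 2.37 FPKM, a difference of -1.52) and the guanine nucleotide enzyme IMPDH2 (56.9 and 22.3 FPKM, a difference of -1.32) were lower. The list of recombination, Fanconi and checkpoint genes had 7 of 47 lower and 1 higher, with a median of -0.34. Of its 19 genes of homologous recombination, which repairs breaks from a sister copy, 5 were lower and none higher, with a median of -0.51. BRCA1 was at 8.7 and 1.24 FPKM, a difference of -2.11, PALB2, its partner, at 6.29 and 2.3 FPKM, a difference of -1.14, RAD50, of the break-sensing complex, at 13.4 and 3.96 FPKM, a difference of -1.54, the Fanconi gene FANCF at 6.44 and 1.07 FPKM, a difference of -1.85, and FANCI at 8.18 and 2.47 FPKM, a difference of -1.4. These genes were low, and only 9 of the 47 reached a mean of 10 FPKM, with a median of 0.27. H2AX was the higher member.

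Genes that slow growth were mixed. TOB1 (16.6 and 53.8 FPKM, a difference of 1.64), TOB2 (15 and 34.3 FPKM), BTG2 (2.96 and 8.56 FPKM) and GADD45B (3.9 and 10.2 FPKM) were the 4 higher of 7 in that list, and MYC, a growth-promoting transcription factor, was at 61.3 and 23 FPKM, a difference of -1.37. The p53 list had 3 of 24 higher and 1 lower; CDKN1A, the p53-induced CDK inhibitor, was at 3.96 and 3.97 FPKM, a difference of 0.00, and MDM2, which degrades p53, at 6.97 and 9.33 FPKM, a difference of 0.37. Of the BCL2 family MCL1, which protects mitochondria, was at 27.9 and 65.1 FPKM, a difference of 1.19, and BAK1, which permeabilizes them, at 10.2 and 26.1 FPKM, a difference of 1.27, so 1 member of each kind was higher. In the list of death receptors, caspases and inhibitors, 3 genes were higher and none lower. They were the TNF receptor family members TNFRSF12A (13.9 and 37.1 FPKM) and TNFRSF10A (3.44 and 7.91 FPKM) and the survivin gene BIRC5 (30 and 72.6 FPKM).

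Genes for making and maturing RNA were mainly higher, by amounts close to other abundant genes. Splicing factors had 16 of 69 higher and none lower, with a median of 0.57; from a mean of 10 FPKM upward 14 of 63 were higher (19.0% of all genes at that level). SF3B1, the branch-point binder of the U2 particle, was at 26.2 and 72.5 FPKM, a difference of 1.43, HNRNPC at 87.7 and 230.5 FPKM, a difference of 1.38, and the kinase CLK1, which phosphorylates splicing regulators, at 10.8 and 33.2 FPKM, a difference of 1.54. RNA polymerase II and Mediator had 6 of 43 higher, with POLR2A, the catalytic subunit, at 13 and 37 FPKM, a difference of 1.44, and 1 lower, MED7 (5.82 and 2.22 FPKM). Helicase DDX3X was at 9.84 and 38.5 FPKM, a difference of 1.87. Proteasome genes had 7 of 48 higher and none lower, including PSMD12 (8.93 and 26.1 FPKM) and PSMA6 (10.8 and 27.9 FPKM).

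Translation genes differed little in either direction. Of 82 cytosolic ribosomal protein genes 3 were higher and none lower; their median of 0.40 lay below the 0.48 of all genes at that level and became -0.06 after quantile normalization. Ribosome biogenesis had 3 of 73 higher, among them nucleophosmin (NPM1, 193 and 398 FPKM, a difference of 1.04), and its median of 0.31 turned negative in 3 of 5 scalings. Among 62 translation factors 8 were higher and 4 lower. EIF1 (163 and 486 FPKM, a difference of 1.57) and ABCE1 (20.1 and 67.7 FPKM, a difference of 1.7), which splits ribosomes after termination, were higher, and EIF5 (71.1 and 27.3 FPKM, a difference of -1.35) and EIF3K (14.7 and 4.37 FPKM, a difference of -1.55) lower. The snoRNA host genes, whose introns encode guides for ribosomal RNA modification, had 4 of 29 lower (13.8%, against 10.4% of all measured genes) and none higher. One of the lower was SNHG8 (9.38 and 2.43 FPKM, a difference of -1.6). From a mean of 10 FPKM upward 0 of 12 were lower.

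Noncoding RNAs were lower more often than protein-coding genes at the same level. Of 529 measured long noncoding genes 29.7% were lower and 2.27% higher. At 1 to 3 FPKM 31.9% of noncoding and 18.8% of protein-coding genes were lower, at 3 to 10 FPKM 26.3% and 9.22%, and at 10 FPKM and above 13.8% and 3.24%. Of 110 genes named as antisense RNAs 41 were lower and 1 higher (SVIL-AS1, 2.52 and 7.77 FPKM), and of 67 LINC genes 23 were lower and 1 higher. LINC03040 was at 19.4 and 0.0915 FPKM, a difference of -4.22, and MNX1-AS1 at 5.51 and 0.245 FPKM, a difference of -2.39. An antisense RNA and its partner cannot be told apart without strand. The zinc finger genes named ZNF, many of them repressors, had 44 of 331 lower (13.3%, against 10.4% of all measured genes) and 8 higher. Their median of -0.11 became 0.02 after quantile normalization. From a mean of 10 FPKM upward 2 of 35 ZNF genes were higher and 3 lower, around a median of 0.305. ZNF32 (12.4 and 1.37 FPKM, a difference of -2.51) and ZNF354A (12.6 and 1.79 FPKM, a difference of -2.29) were among the lower and ZNF367 (12.6 and 32.4 FPKM, a difference of 1.29) among the higher. In the HOX family, which sets position along the body, 3 of 26 were higher and 2 lower. Among them HOXD4 (7.99 and 2.47 FPKM, a difference of -1.38) was lower and HOXC13 (3.97 and 14.4 FPKM, a difference of 1.64) higher.

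**Figure D4:**
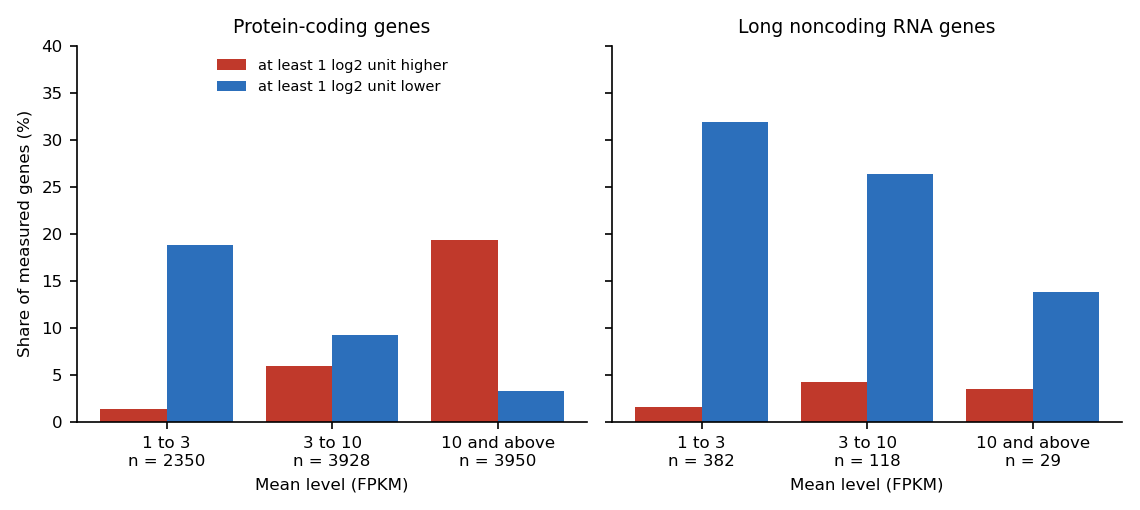
Share of measured genes (vertical axis, %) at least 1 log2 unit higher or lower after periplocymarin, by mean FPKM (horizontal axis), for protein-coding and long noncoding genes. Bars are counts over genes of 1 pair of libraries and carry no error. Lower noncoding genes make up 31.9%, 26.3% and 13.8% in the 3 ranges, above the 18.8%, 9.22% and 3.24% of protein-coding genes.

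Messages encoded in mitochondrial DNA and nuclear genes of the same respiratory complexes had medians on opposite sides of 0. Reads of mitochondrially encoded genes were 6.9% of the vehicle and 3.38% of the treated library. All 13 protein-coding mitochondrial genes were measured, 4 of them lower and none higher, with a median of -0.74 that became -0.01 after quantile normalization. MT-CO3 was at 8342 and 2704 FPKM, a difference of -1.62, MT-CO2 at 6417 and 2985 FPKM, a difference of -1.1 (0.17 after quantile normalization) and MT-ND3 at 2582 and 671 FPKM, a difference of -1.94. Of 79 nuclear genes for oxidative phosphorylation 10 were higher and 2 lower, with a median of 0.55 close to that of all genes at 10 FPKM and above. NDUFA4 (47.1 and 121 FPKM, a difference of 1.35) and COX7B (40.8 and 92.9 FPKM) were higher, NDUFB10 (59.2 and 20.6 FPKM, a difference of -1.48) and NDUFA7 (22.2 and 8.81 FPKM) lower. Mitochondrial import had 6 of 27 higher, led by TIMM17A (26.7 and 92.6 FPKM, a difference of 1.76), a channel subunit of the inner membrane.

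Metabolic genes showed single genes of large difference rather than whole pathways. Of the glycolytic and hypoxia list 7 of 36 were higher and 5 lower. The aldolases lay on opposite sides, ALDOA at 66.8 and 206 FPKM, a difference of 1.61, and ALDOC at 12.7 and 4.4 FPKM, a difference of -1.34, as did the prolyl hydroxylase subunits P4HA1 (23.9 and 72.5 FPKM, a difference of 1.56) and P4HA2 (4.56 and 0.989 FPKM, a difference of -1.48). The glucose transporters SLC2A3 (5.52 and 15.7 FPKM, a difference of 1.36) and SLC2A1 (6.74 and 14.6 FPKM, a difference of 1.01) were higher, and hexokinase HK1 (5.67 and 1.98 FPKM, a difference of -1.16) was lower. Cholesterol and fatty acid synthesis had 3 of 37 lower, such as PMVK (24 and 7.25 FPKM, a difference of -1.6), and 1 higher, SC5D (6.75 and 19.1 FPKM, a difference of 1.37). Of 9 polyamine genes 3 were higher and none lower, and the median of 0.09 turned negative in all 5 scalings. The higher members were AMD1, ODC1 (57 and 131 FPKM, a difference of 1.19), which starts synthesis, and SAT1 (4.52 and 13.6 FPKM, a difference of 1.41), which acetylates polyamines for export. Iron and ferroptosis genes had 2 of 22 higher and 2 lower, with the transferrin receptor TFRC at 9.56 and 33.2 FPKM, a difference of 1.69, and the ferrireductase STEAP3 at 2.7 and 0.223 FPKM, a difference of -1.6.

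A further list held YAP and TAZ, coactivators that respond to cell shape and adhesion, with their pathway and targets. Of its 33 genes 9 were higher (27.3%, against 9.72% of all measured genes) and none lower, with a median of 0.54. From a mean of 10 FPKM upward 6 of 14 were higher, where 19.0% of all genes were. Of its 16 targets 6 were higher and 3 lay below 0, down to -0.85, around a median of 0.33. CCN2 was at 1.41 and 6.5 FPKM, a difference of 1.64, AMOTL2 at 4.09 and 22.3 FPKM, a difference of 2.19, LATS2, a kinase that inhibits YAP, at 2.82 and 14.9 FPKM, a difference of 2.06, AJUBA at 11.5 and 36.2 FPKM, a difference of 1.57, and YAP1 itself at 29.5 and 61.9 FPKM, a difference of 1.05. Genes of the actin cytoskeleton had 7 of 37 higher and none lower, and 7 of 24 higher from 10 FPKM upward. Among them were the myosin light chains MYL6 (43.3 and 117 FPKM, a difference of 1.41) and MYL12B (70.7 and 176 FPKM, a difference of 1.3). SRF, a transcription factor of such genes, was at 6.72 and 22.8 FPKM, a difference of 1.62. CAV1, the coat protein of caveolae, was at 2.55 and 8.65 FPKM, a difference of 1.44. Of 19 ID and BMP-SMAD genes 5 were higher and none lower, but from 10 FPKM upward only 1 of 6 was higher. BMP4 was at 1.77 and 10.6 FPKM, a difference of 2.07, and the BMP-induced inhibitors BAMBI (9.54 and 31.4 FPKM, a difference of 1.62) and SMAD6 (1.95 and 7.02 FPKM, a difference of 1.44) were higher. FOS was at 0.642 and 3.17 FPKM, a difference of 1.34, and KLF5 at 19.9 and 56.4 FPKM, a difference of 1.46, whereas DUSP9, a phosphatase of ERK, was at 4.68 and 0.813 FPKM, a difference of -1.65. Integrins had 2 of 8 higher, such as ITGAV (7.3 and 21 FPKM, a difference of 1.41), and 1 lower, ITGA6 (4.73 and 1.38 FPKM, a difference of -1.27).

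Matrix and identity genes were divided. Of 47 measured mesenchymal matrix genes 8 were higher and 8 lower. Fibrillar collagens COL3A1, COL1A1 (37.7 and 83.6 FPKM, a difference of 1.13) and COL5A2 (30.1 and 83.9 FPKM, a difference of 1.45) were higher, and COL15A1 (4.52 and 0.491 FPKM, a difference of -1.89) and COL14A1 (2.92 and 0.204 FPKM, a difference of -1.7) lower. From 10 FPKM upward 7 of 28 were higher and 1 lower. Of 6 measured epithelial genes 2 were higher and 2 lower. ESRP1, a splicing regulator of epithelial cells, was at 7.64 and 0.0348 FPKM, a difference of -3.06, and the desmosomal DSP at 1.92 and 0.43 FPKM, a difference of -1.03, whereas the keratins KRT4 (0.646 and 5.78 FPKM, a difference of 2.04) and KRT10 (7.68 and 22.9 FPKM, a difference of 1.46) were the higher members. B2M, the light chain of HLA class I, was at 70.2 and 190.3 FPKM, a difference of 1.43, 1 of 2 higher genes among 11 of antigen presentation, where none was lower. S100 and annexin genes had 2 of 14 higher and 2 lower, with ANXA1 at 46.7 and 136 FPKM, a difference of 1.52, and ANXA4, which overlaps AAK1, at 3.4 and 0.622 FPKM, a difference of -1.44.

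**Figure D5:**
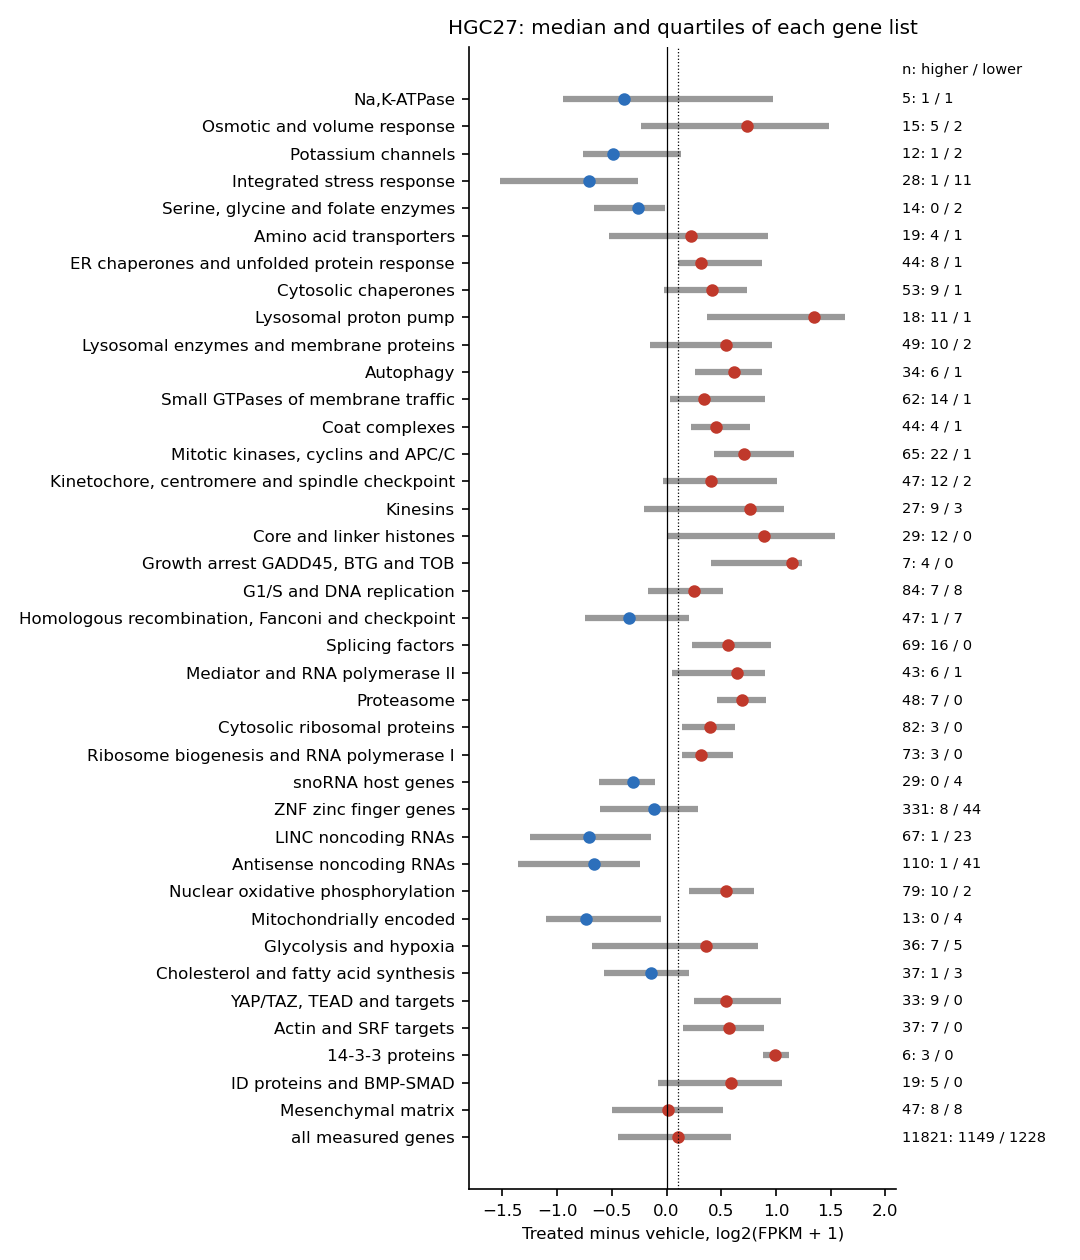
Median (point) and quartiles (bar) of the difference in log2(FPKM + 1), treated minus vehicle (horizontal axis), for the measured genes of each list (rows), with the numbers measured, higher and lower at the right and a dotted line at the median of all genes, 0.11. The V-ATPase lies highest at 1.34 and the mitochondrially encoded genes lowest at -0.74. The sign flips in at least 1 of 5 scalings for amino acid transporters, small GTPases, G1/S genes, ribosomal proteins, ribosome biogenesis, ZNF genes, glycolysis and mesenchymal matrix.

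MKN45 gave a second, separate pair of libraries, also without replicates, and the difference between the lines was not tested. Among the 10071 genes that reached the level floor in both lines, 851 were higher and 709 lower in MKN45, around a median of 0.12. By the same floor in MKN45, the integrated stress response list had 3 of 25 higher and 13 lower there. The mitotic kinase list had 19 of 65 higher, and the proton pump list 4 of 18 higher with a median of 0.49 against 1.34 in HGC27. Ribosome biogenesis lay the other way in size, with 24 of 73 higher and a median of 0.90 in MKN45 against 3 of 73 and 0.31 in HGC27. ASNS differed by -2.35 in MKN45 and 0.10 in HGC27, and PHGDH, the first enzyme of serine synthesis, by -1.87 and 0.55. CA2 differed by -0.06 and 2.01, and ESRP1 by 0.32 and -3.06. In the same order of lines MFSD5 differed by -0.16 and 2.54, SOSTDC1 by -0.24 and -2.45, and FANCI by 0.77 and -1.4. TOB1 and BAMBI differed by -0.63 and -0.79 in MKN45, against 1.64 and 1.62 in HGC27. The caveolar CAV1 differed more in MKN45 (3.76) than in HGC27 (1.44), as did GADD45B (3.26 and 1.2).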

How the data were processed

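Poly(A) messenger RNA of HGC27 cells was compared between 1 periplocymarin and 1 DMSO library, grouped by the sample titles; nothing in the labels gives a batch or a replicate. The authors deposited 1 table of 62710 genes whose values were taken as FPKM from their steps, since no header names the unit. Per the submitters' processing notes, HISAT2 2.1.0, fastp 2.0 and the build hg38 were used. Their roles, the counter, the annotation and the strand setting were not given in the sources used here. Whole reads were recovered (tolerance 0.0001) for 11772 of the 11821 measured genes, with lengths from GENCODE 29 for 3177 and searched lengths for 8595, and the library sizes implied composition factors of 1.2 and 0.945, an inference from the values. A free length fits many genes, so reads serve only for depth, counting error, the mitochondrial share of reads and the scaling to library totals. Each of these uses carries the uncertainty of the searched lengths.

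Differences of log2(FPKM + 1) were computed for genes with a mean of at least 1 FPKM, in Python 3.11.15 with pandas 2.3.3, numpy 2.4.6 and scipy 1.17.1. No test was run, as each side is 1 library. The counting of calls was checked on simulated reads, only for genes from 10 FPKM upward. Those simulated libraries differed by counting error and set changes alone, so the check cannot show whether the calls would repeat. Named genes are the 20 highest and 20 lowest differences from 10 FPKM upward, the 4 highest and 4 lowest and the 2 most abundant members of each list, members of roles with up to 20 members, threshold neighbours, markers and the first 4 promoters by difference. MKN45 differences are given for named genes where the lines differ by 2 or more, uncertain models aside. This holds for genes averaging at least 1 FPKM in both lines and at least 10 FPKM in either. Beyond that rule, ATP6AP1, ATP6V0B, ATP6V1A, ATP6V1D, ATP6V1E1, HNRNPC, RAB1A, RAB7A and SAR1A were chosen after their values were seen. Some genes under the rule are not reported here. The members and lists were chosen with earlier results of these data known. Promoters (250 bases) were matched by symbol to RefSeq GRCh38.p14 for 8651 measured genes. The 9 alternatives were 2 pseudocounts, 2 level filters and 5 scalings.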

Additional observations from a re-analysis of the deposited data

Results flagged for a closer look

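For 21 genes, chosen after their values were seen, the HGC27 and MKN45 differences were at least 1 log2 unit each and pointed in opposite directions. Of these, 8 unnamed, read-through or small nucleolar RNA models were left out as uncertain, which leaves 13. The difference between the lines was not tested, as each line has 1 library per side. Of the 13, 6 were lower in HGC27 and higher in MKN45: GDF15 (-4.6 and 1.39), GPRC5B (-1.39 and 1.09), ARRDC3 (-1.24 and 1.48), PROCR (-1.12 and 1.03), GPCPD1 (-1.05 and 1.06) and DSP (-1.03 and 1.11). The other 7 were higher in HGC27 and lower in MKN45. They were FBXL19 (1.02 and -1.28), CYBRD1 (1.03 and -1.48), PBXIP1 (1.14 and -1.16), EPDR1 (1.27 and -1.64), SAT1 (1.41 and -1.44), TMEM160 (1.52 and -1.5) and RPL7A (1.93 and -1.57). ARRDC3, an arrestin-domain protein, went from 16.7 to 6.46 FPKM in HGC27, and RPL7A, a ribosomal protein with many processed copies, from 77.5 to 297 FPKM, so its reads are uncertain.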

How the results depend on the processing

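No paired analysis was possible because the labels carry no replicate numbers and each group is 1 library, and for the same reason no replicate could be left out. Higher and lower genes numbered 1149 and 1228 as deposited, 1515 and 1847 with a pseudocount of 0.1, 546 and 189 with a pseudocount of 5, 1181 and 1466 without a level filter, 795 and 150 at a floor of 10 FPKM, 986 and 2062 with columns rescaled to 1 common sum, 709 and 1119 after quantile normalization, 859 and 1470 after centring, 487 and 1931 with library totals alone and 584 and 2640 with mitochondrial genes left out. The median over all genes, 0.106, was 0.129, 0.063, -0.049, 0.482, -0.025, 0.037, 0, -0.178 and -0.237 in the same order of settings. Of the list medians, 471 values moved by less than the half-width of an interval around the median, drawn from the list's ordered values. A further 152 moved and 24 reversed. "Reversed" counts a change of sign only for lists whose interval excluded 0. Sign changes alone were more frequent, with 30 of the 72 lists changing sign in at least 1 of the 5 scalings. The BCL2 family, polyamine and mesenchymal matrix medians did so in all 5. The 24 medians counted as reversed are as follows. After quantile normalization NRF2 targets were at -0.066, G1/S genes at -0.085, ribosomal proteins at -0.061, translation factors at -0.047, ribosome biogenesis at -0.083 and ZNF genes at 0.016. With library totals alone the TUB-named genes were at -0.054, G1/S genes at -0.095, ribosome biogenesis at -0.009, ubiquitin enzymes at -0.049, immediate early genes at -0.006 and solute carriers at -0.089. With mitochondrial genes left out these 6 lists were at -0.09, -0.13, -0.043, -0.085, -0.039 and -0.135, with NF-kB targets at -0.025 and small GTPases at -0.004. At a floor of 10 FPKM, which leaves fewer genes, the recombination, Fanconi and checkpoint list was at 0.274, ZNF genes at 0.305 and LINC genes at 0.151. Without a filter solute carriers were at -0.032. Of 236 called genes named here, 235 kept their sign after quantile normalization, the exception being MT-CO2 at 0.165, and 173 stayed past 1; with a pseudocount of 5, 163 did. The cause of the other reversals was not tested. Depth limits the low genes: 81 called genes had under 50 reads over both libraries, and 2351 of the 2367 called genes with recovered reads had a counting interval that excluded 0.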
